A study of Mus musculus with 10 samples.

Results

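The endothelial genes described here are 10 genes that mark the cells lining blood vessels: Pecam1, Cdh5, Kdr, Flt1, Tek, Emcn, Plvap, Eng, Cldn5 and Esam. They were chosen by name, as the rows of the count table whose Ensembl identifier maps to these symbols, and all 10 were found among 35375 features. The levels were measured by total RNA sequencing of the whole thymus, 3 days after birth, in C57BL/6J mice. The product of Usp7 removes ubiquitin from other proteins, and per the labels it was knocked out in the hematopoietic system. The homozygous KO group had n = 3 animals, the heterozygous KO group n = 3 and the wild-type group n = 4. According to the series, 2 wild types carried cre, the recombinase that deletes a marked gene, and 2 did not, without saying which library is which. The titles of wild type 1 and wild type 2 read wt.wt. Those of wild type 3 and wild type 4 read wt, and their count columns also hold the word het. Whether these words mark cre is not stated. The promoter that drives cre is not given in the sources used here. Vessel cells are not counted among the hematopoietic cells in which the labels place the knock-out, but whether vessel cells kept Usp7 is not stated. A whole-thymus library mixes their RNA with that of thymocytes and all other thymic cells.

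Endothelial cells form the inner wall of every vessel. They are joined by adherens and tight junctions (Cdh5, Pecam1, Esam, Cldn5), read growth signals through receptors for VEGF (Kdr, Flt1), angiopoietin (Tek) and ligands of the BMP and TGF-beta family (Eng), and carry surface glycoproteins of the capillary wall (Emcn, Plvap). In the thymus, progenitors enter and mature T cells leave through these vessels. Several of the genes are also known outside endothelium: Pecam1 on platelets and many leukocytes, Eng on macrophages, stromal cells and erythroid precursors, and Tek and Esam on hematopoietic stem cells. Proteins of the ETS family, which bind a GGAA core, are well known regulators of endothelial genes.

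Promoter sequences are given for Eng, the member that differed most clearly between groups, and for the growth factor receptor genes Kdr, Flt1 and Tek, whose levels took another course. Each line holds the 250 bases before the start of the gene, 5′ to 3′ on the gene's own strand, from RefSeq on GRCm38.p6, with GGAAGT or its reverse complement ACTTCC in capitals. The RefSeq promoter table held 6 of the 10 members.
Eng (chr2:32646345-32646594, + strand): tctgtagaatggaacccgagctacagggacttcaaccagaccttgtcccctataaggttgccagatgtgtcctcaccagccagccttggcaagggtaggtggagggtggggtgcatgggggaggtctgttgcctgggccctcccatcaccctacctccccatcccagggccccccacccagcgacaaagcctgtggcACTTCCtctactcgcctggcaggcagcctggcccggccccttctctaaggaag
Kdr (chr5:75978456-75978705, - strand): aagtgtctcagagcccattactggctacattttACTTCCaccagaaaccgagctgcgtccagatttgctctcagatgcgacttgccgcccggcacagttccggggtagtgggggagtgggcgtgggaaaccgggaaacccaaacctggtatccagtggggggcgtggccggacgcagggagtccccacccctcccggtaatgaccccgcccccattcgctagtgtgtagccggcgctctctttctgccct
Flt1 (chr5:147726012-147726261, - strand): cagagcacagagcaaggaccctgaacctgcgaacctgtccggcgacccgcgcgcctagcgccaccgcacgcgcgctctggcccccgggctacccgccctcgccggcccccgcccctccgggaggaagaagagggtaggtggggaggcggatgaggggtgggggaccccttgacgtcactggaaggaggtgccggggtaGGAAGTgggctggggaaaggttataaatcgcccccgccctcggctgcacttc
Tek (chr4:94739039-94739288, + strand): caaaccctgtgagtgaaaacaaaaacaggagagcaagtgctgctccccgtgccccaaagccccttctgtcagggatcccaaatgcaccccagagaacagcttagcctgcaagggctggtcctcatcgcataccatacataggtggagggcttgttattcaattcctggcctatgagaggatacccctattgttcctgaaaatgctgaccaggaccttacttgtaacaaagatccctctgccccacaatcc
Over windows of 300 bases (250 before the start and 50 after it, both strands), GGAAGT stood in 3 of the 6 member promoters (Eng, Flt1 and Kdr) and in 23.8% of 32851 promoters. The E-box CANNTG stood in 5 of 6 (Cldn5, Emcn, Eng, Kdr and Tek) against 72.3% of all promoters. The GATA site AGATAA stood in 1 of 6 (Tek) against 11.2%. Each motif was counted separately, and a match of 1 motif could overlap a match of another. These matches describe the sequence only, and no binding was measured.

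The wild-type libraries were the shallowest, at 39.8 to 86.4 M counts each, against 90.5 to 97.4 M (heterozygous KO) and 92.3 to 122 M (homozygous KO). Wild type 1 and wild type 2 had 39.8 and 41 M counts, and wild type 3 and wild type 4 had 86.4 and 81 M. Levels are given as CPM, counts as a rate of the TMM-adjusted library size, and 3 counts, the limit that a count of 0 allows, corresponded to between 0.026 and 0.0737 CPM. Such limits cover counting error only. Usp7 itself was at 303, 422 and 408 CPM in homozygous KO, 472, 516 and 516 CPM in heterozygous KO and 676, 670, 594 and 589 CPM in wild type. It was lower in homozygous KO than in wild type by edgeR's quasi-likelihood test (log2 fold change -0.74 ± 0.11 SE, adjusted p = 0.000525) and was not called in heterozygous KO (-0.34, adjusted p = 0.608). The library homozygous KO 2 stood apart in the members: it held the highest value of the 10 libraries for 6 of the 9 tested members. Over all tested genes its share was 14.1%, against 15.7% in homozygous KO 1 and 13.8% in wild type 3.

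The 10 members differed widely in level. Pecam1, an adhesion molecule at contacts between endothelial cells, made up 83.1% to 90.4% of the members' summed CPM in each library. Per kilobase of exon, the mean over the 10 libraries was 23.2 CPM for Pecam1, 4.59 for Eng, 0.639 for Plvap, 0.43 for Cdh5, 0.284 for Esam, 0.169 for Kdr, 0.16 for Cldn5, 0.069 for Flt1, 0.0477 for Tek and 0.0156 for Emcn. On this scale Pecam1 was 54 times and Eng 10.7 times as high as Cdh5, which encodes VE-cadherin and is the member most restricted to endothelium. The defining endothelial genes Cdh5, Kdr and Tek had counts in all 10 libraries, at low levels. Tek had 1 count in wild type 1, under the limit of 3 counts. Most of the reads counted here came from Pecam1 and Eng, which other thymic cells can also express.

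**Figure D1:**
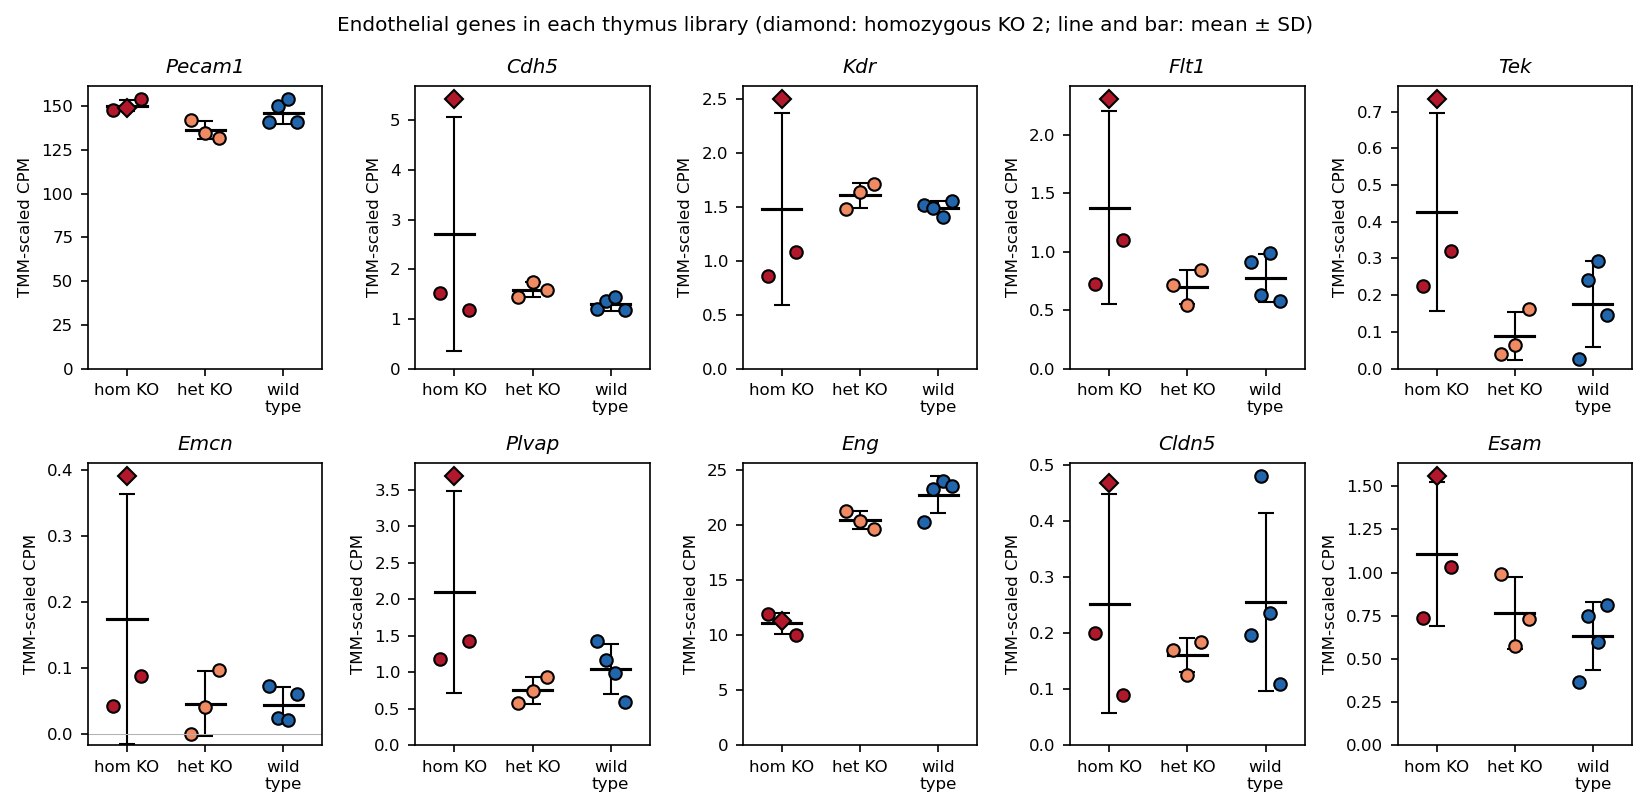
TMM-scaled CPM (y axis) of the 10 endothelial genes, 1 panel each, in every library of the 3 groups. Each point is 1 library, the line and bar are the mean ± SD, and the diamond is homozygous KO 2. Eng lies at 10 to 11.9 CPM in homozygous KO and at 19.7 to 24 CPM in the other libraries, while the diamond is the highest point in 7 of the 10 panels.

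Eng was the member with a clear difference between the groups. It encodes endoglin, a co-receptor that helps the type I receptor ALK1 (gene Acvrl1) respond to BMP9 and BMP10. Its level was 11.9, 11.3 and 10 CPM in homozygous KO, 21.3, 20.4 and 19.7 CPM in heterozygous KO and 20.3, 23.3, 24 and 23.6 CPM in wild type. All 3 homozygous KO libraries lay below all 7 others, and the heterozygous KO and wild-type ranges overlapped. The mean was 11.1 ± 0.946 CPM (SD, n = 3) in homozygous KO against 22.8 ± 1.69 CPM (SD, n = 4) in wild type. By edgeR, Eng in homozygous KO stood at 48.5% of wild type (log2 fold change -1.04 ± 0.09 SE, 95% interval -1.24 to -0.85, adjusted p = 1.4e-05). Against heterozygous KO it stood at 54% (-0.89 ± 0.09 SE, adjusted p = 8.49e-05). The difference was -1.05 without homozygous KO 2 (adjusted p = 0.000139). Among animals numbered 44 to 51 the difference in mean log2 CPM was -0.92, from 1 homozygous KO and 3 wild types, and among animals numbered 56 to 63 it was -1.15, from 2 homozygous KO and 1 wild type. In a whole-thymus library, fewer cells of a type and less RNA per cell cannot be told apart. Of the exon bases of Eng, 1.51% are shared with Fpgs on the opposite strand, and no other member shares exon bases with a counted gene.

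Acvrl1, the partner receptor of endoglin, was lower as well. Its level was 1.1, 0.577 and 0.366 CPM in homozygous KO, 4.28, 4.63 and 4.68 CPM in heterozygous KO and 4.71, 3.73, 5.64 and 3.98 CPM in wild type, so the homozygous KO libraries again lay below all others. The log2 fold change against wild type was -2.72 ± 0.33 SE (edgeR, adjusted p = 0.000155) and -2.59 without homozygous KO 2 (adjusted p = 0.00109). Csf1r and Adgre1, genes of macrophages, cells that can also express Eng, moved the same way. Csf1r, the receptor for macrophage growth factors, was at 4.76, 4.18 and 4.36 CPM in homozygous KO and at 10.3, 10.8, 15.1 and 12.2 CPM in wild type (log2 fold change -1.45, edgeR adjusted p = 0.000194). Adgre1, which encodes F4/80, fell by 1.30 on the log2 scale (adjusted p = 0.000457). Of the 6 listed myeloid genes 3 were lower and 1 higher by edgeR, the neutrophil gene S100a8 at 3.78 (adjusted p = 0.00138). Itgam and Lyz2 were not called, at means of 14.8 and 32.2 CPM in homozygous KO against 12.3 and 26.2 CPM in wild type. The summed level of the 6 genes was 49.9 to 147 CPM in homozygous KO against 64.7 to 75.9 CPM in wild type. The part of macrophages in the lower Eng level was not tested.

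Pecam1 was nearly level across the libraries. It was at 148, 149 and 154 CPM in homozygous KO, 142, 135 and 132 CPM in heterozygous KO and 141, 150, 154 and 141 CPM in wild type. The homozygous KO values lay within the wild-type range and above the heterozygous KO values. The log2 fold change was 0.04 ± 0.05 SE in homozygous KO against wild type (95% interval -0.07 to 0.15, edgeR adjusted p = 0.629), turned to -0.06 when only library totals were used for scaling, and was 0.14 against heterozygous KO (adjusted p = 0.109). With counts of 5738 to 17043 per library, this is the member measured with the least counting error.

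The VE-cadherin gene Cdh5 was at 1.53, 5.42 and 1.17 CPM in homozygous KO, 1.44, 1.74 and 1.59 CPM in heterozygous KO and 1.2, 1.35, 1.44 and 1.18 CPM in wild type. Only homozygous KO 2 stood out, at 4.01 times the mean of the other homozygous KO libraries. The log2 fold change against wild type was 1.06 ± 0.43 SE (95% interval 0.11 to 2.01, edgeR adjusted p = 0.0957), and it was 0.07 without homozygous KO 2. Esam, a junction molecule of endothelium and platelets, was at 0.738, 1.56 and 1.03 CPM in homozygous KO, 0.99, 0.576 and 0.73 CPM in heterozygous KO and 0.368, 0.746, 0.596 and 0.81 CPM in wild type (log2 fold change 0.80 ± 0.34 SE, 95% interval 0.06 to 1.55, adjusted p = 0.108, and 0.48 without homozygous KO 2). Its groups overlapped. Cldn5, the claudin of tight junctions in endothelium, was at 0.2, 0.469 and 0.0887 CPM in homozygous KO, 0.17, 0.126 and 0.185 CPM in heterozygous KO and 0.196, 0.481, 0.236 and 0.109 CPM in wild type. It had 8 to 48 counts per library, and the interval of its log2 fold change of 0.03 ran from -1.26 to 1.32.

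Among the growth factor receptors, Kdr (VEGF receptor 2, the main signalling receptor for VEGF-A) was at 0.859, 2.5 and 1.08 CPM in homozygous KO, 1.48, 1.64 and 1.71 CPM in heterozygous KO and 1.52, 1.49, 1.41 and 1.56 CPM in wild type. Thus homozygous KO 1 and 3 lay below every other library and homozygous KO 2 above all of them. The log2 fold change was -0.02 ± 0.32 SE (95% interval -0.71 to 0.68, edgeR adjusted p = 0.978) with all libraries and -0.62 without homozygous KO 2 (adjusted p = 0.0655). Flt1 (VEGF receptor 1, a high-affinity receptor with weak kinase activity) was at 0.72, 2.3 and 1.1 CPM in homozygous KO, 0.71, 0.544 and 0.839 CPM in heterozygous KO and 0.909, 0.626, 0.99 and 0.58 CPM in wild type. Its difference of 0.82 ± 0.38 SE was not called (adjusted p = 0.14), and its highest value was again in homozygous KO 2. The difference was 0.23 without that library (adjusted p = 0.681) and 1.12, past the threshold, without homozygous KO 1 (adjusted p = 0.0397). Tek (TIE2, the receptor for angiopoietins) was at 0.226, 0.734 and 0.321 CPM in homozygous KO, 0.04, 0.0628 and 0.163 CPM in heterozygous KO and 0.0246, 0.241, 0.293 and 0.145 CPM in wild type. All homozygous KO libraries lay above all heterozygous KO libraries and overlapped the wild types. The log2 fold change of Tek was 1.22 ± 0.64 SE against wild type (adjusted p = 0.193) and 2.26 ± 0.73 SE against heterozygous KO (adjusted p = 0.0557), from as few as 1 count in a wild-type library. Without homozygous KO 2 it was 0.59 (adjusted p = 0.615) and 1.61 (adjusted p = 0.212). Against heterozygous KO, Tek passed the threshold with DESeq2 (2.27, adjusted p = 0.0293) and with a term for the animal-number set (2.25, adjusted p = 0.0423).

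Of the surface glycoproteins of the capillary wall, Plvap, which forms the diaphragms of fenestrae and caveolae, was at 1.18, 3.69 and 1.42 CPM in homozygous KO, 0.57, 0.743 and 0.937 CPM in heterozygous KO and 1.42, 1.16, 0.99 and 0.592 CPM in wild type. The homozygous KO libraries all lay above the heterozygous KO libraries. Plvap was called 2.79-fold higher in homozygous KO than in heterozygous KO (log2 fold change 1.48 ± 0.45 SE, edgeR adjusted p = 0.0429). This call was lost without homozygous KO 2 (0.79, adjusted p = 0.194) and in 11 of 19 alternatives in all, with adjusted p from 0.00803 to 0.194, among them leaving out any 1 of heterozygous KO 1, 2 and 3 or of wild types 1, 2 and 3. Against wild type the difference was 1.03 ± 0.41 SE (adjusted p = 0.0919), and 0.34 without homozygous KO 2. Emcn, which encodes endomucin of capillaries and veins, had 5, 40 and 8 counts in the homozygous KO libraries, against 0, 4 and 9 in the heterozygous KO and 3, 1, 2 and 5 in the wild-type libraries. It did not pass the filter on low counts. The count of 0 in heterozygous KO 1 allows up to 3 counts. Without the filter its log2 fold change was 1.93 ± 0.94 SE against wild type (edgeR adjusted p = 0.2), and the largest count, 40, was that of homozygous KO 2.

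**Figure D2:**
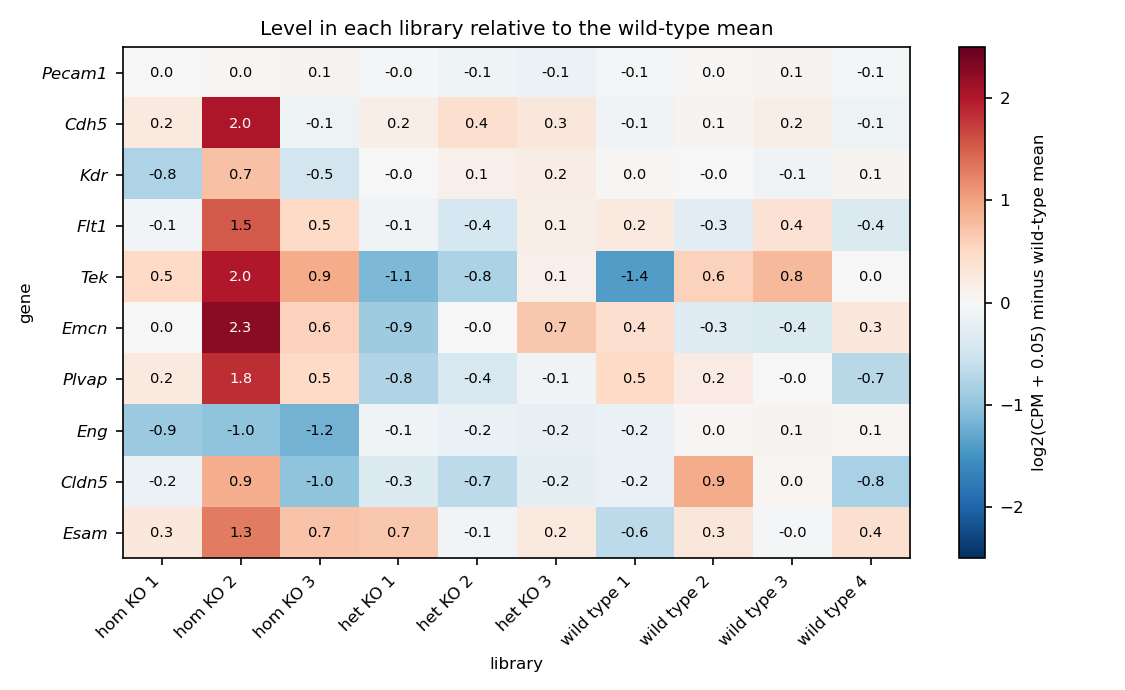
Level of each endothelial gene (rows) in each library (columns) as log2(CPM + 0.05) minus the mean of the 4 wild types, printed in each cell and coloured from blue (lower) to red (higher). The column of homozygous KO 2 is red for every gene except Pecam1 and Eng, and the row of Eng is blue in all 3 homozygous KO columns.

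Homozygous KO 2 thus carried the largest values for the less abundant members other than Cldn5. It was the highest of the 10 libraries for 7 of the 10 members, against 14.1% of all tested genes. The 8 members other than Pecam1 and Eng summed to 17.1 CPM in it and to 5.04 to 6.3 CPM in each of the other 9 libraries. Its ratio to the mean of the other homozygous KO libraries was 5.92 for Emcn, 4.01 for Cdh5, 3.26 for Cldn5, 2.84 for Plvap, 2.68 for Tek, 2.59 for Kdr, 2.53 for Flt1 and 1.77 for Esam, against 1.03 for Eng and 0.986 for Pecam1. The 8 less abundant members thus had their highest homozygous KO value in the same animal, and Pecam1 and Eng did not. For Cldn5 that value, 0.469 CPM, lay within the wild-type range of 0.109 to 0.481 CPM. In the same library the summed levels of the listed myeloid genes (147 CPM, against 49.9 and 89.4 in the other homozygous KO libraries), mural genes without Notch3 (35.5 CPM, against 18.1 and 23.9) and fibroblast genes (110 CPM, against 91.2 and 89.1) were also the highest of the group. The mural sum of 35.5 CPM lay within the wild-type range of 30.9 to 38.7 CPM. The erythroid genes summed to 890 CPM, against 840 and 96.3 CPM. The thymic epithelial genes were not highest there, at 124 CPM against 116 and 235 CPM. The megakaryocyte and platelet genes were lowest, at 7.37 CPM against 8.83 and 9.34 CPM. The part of these cells in the members' levels in this library was not tested.

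Counted over the whole group, homozygous KO against wild type gave 1 call among the 9 tested members, Eng, where 25.8% of all 19511 tested genes were called (13.2% lower and 12.5% higher). The groups did not overlap for 1 tested member, Eng, against 32.7% of all genes (16.3% higher and 16.4% lower). The other 8 tested members were not called, and 4 of 9 had an unadjusted p under 0.05, against 37.4% of all genes. The median log2 fold change of the members was 0.80, with 7 positive and 2 negative, against -0.01 for all tested genes, and the members' median was 0.07 without homozygous KO 2. A share of 1 in 9 is not above the background.

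In heterozygous KO against wild type, edgeR called 0 of the 9 tested members, DESeq2 also called 0, and none had an unadjusted p under 0.05. For 0 of the 9 the groups did not overlap, against 8.69% of all genes (4.41% higher and 4.27% lower). Among all genes 0.0154% were called (3 of 19511) and 7.28% had an unadjusted p under 0.05. The members' log2 fold changes ran from -1.04 for Tek (95% interval -2.63 to 0.56) to 0.29 for Cdh5 (-0.67 to 1.26), with a median of -0.16. The intervals were narrow for the abundant members, -0.21 to 0.01 for Pecam1 and -0.34 to 0.03 for Eng, and wide for the rest. Whether the effect on Eng differs between homozygous and heterozygous KO is answered by their direct comparison, in which Eng was lower in homozygous KO.

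In homozygous KO against heterozygous KO, 2 of 9 tested members were called, Plvap higher and Eng lower, where 17.1% of all genes were called (7.63% higher and 9.5% lower). The groups did not overlap for 4 members, with Pecam1, Tek and Plvap higher and Eng lower, against 33.3% of all tested genes (16.5% higher and 16.8% lower). The comparison shares its homozygous KO libraries with the one against wild type. Without homozygous KO 2, Eng was the only member called.

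**Figure D3:**
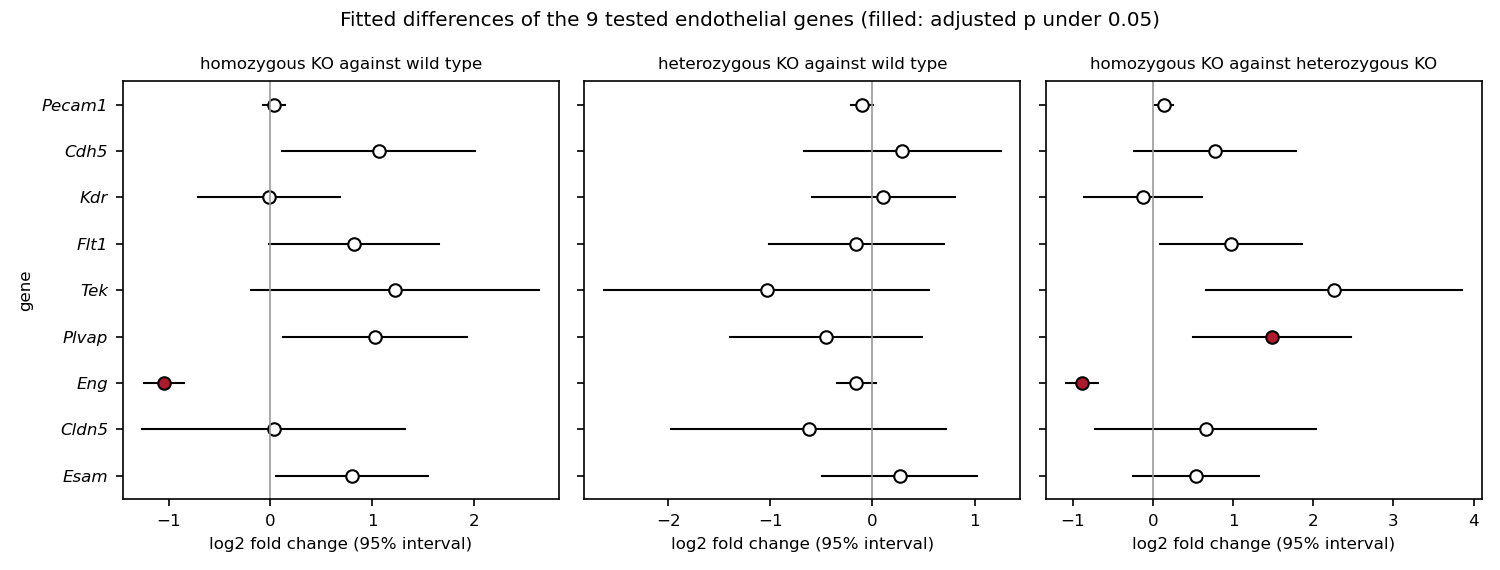
Fitted log2 fold changes (points) with 95% intervals (bars) of the 9 tested endothelial genes in the 3 comparisons. Filled points had an edgeR adjusted p under 0.05, and the x axes differ in range. Eng lies at -1.04 and -0.89 in the comparisons with homozygous KO, both filled, and the filled point above 0 is Plvap at 1.48.

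Other genes listed as endothelial did not move as 1 block, and their levels differed widely. Of 14 other endothelial receptors, all tested, 3 were higher and 5 lower in homozygous KO than in wild type, with a median of 0.02. Over all tested genes 12.5% were called higher and 13.2% lower, the shares to read beside this count and those of the lists below. The lower ones were Acvrl1, Ephb4, Nrp1, S1pr1 and Calcrl. Their wild-type means were, in that order, 4.52, 10.8, 156, 26.7 and 33.7 CPM, against 1.29 CPM for Cdh5. Ephb4, the venous receptor for ephrin-B2, fell by 2.18 on the log2 scale (edgeR adjusted p = 0.01). The higher ones were Tie1, Aplnr and Ptprb, at wild-type means of 0.18, 0.358 and 0.494 CPM. The part of other thymic cells in these levels was not tested. Tie1, the orphan partner of TIE2, was at 0.443, 1.85 and 0.554 CPM in homozygous KO against 0.221, 0.313, 0.124 and 0.0605 CPM in wild type (2.50, adjusted p = 0.0239), and its call was lost without homozygous KO 2 (1.56, adjusted p = 0.145). Without that library 0 of the 14 receptors were higher and 5 were lower, with Nrp2 called in place of Nrp1 (adjusted p = 0.0305 and 0.0584).

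Of 12 listed vascular ligands, 10 were tested, with 2 higher and 5 lower and a median of -0.55. Vegfa, the ligand of Kdr and Flt1, was at 26.3, 55.4 and 47.2 CPM in homozygous KO, 14.3, 23.3 and 23.4 CPM in heterozygous KO and 15.4, 13.6, 13.8 and 25.2 CPM in wild type. All homozygous KO libraries lay above all others (log2 fold change 1.33, edgeR adjusted p = 0.00565, and 1.11 without homozygous KO 2, adjusted p = 0.0241). Pdgfb, which recruits pericytes to vessels, fell by 1.15 on the log2 scale (adjusted p = 0.00207). Pgf, a ligand of Flt1, fell by 1.48 (adjusted p = 0.0461), a call lost without homozygous KO 2 (adjusted p = 0.057). Of the 9 listed endothelial transcription factors 7 were tested, with 2 higher and 1 lower. Erg, an ETS factor that keeps up endothelial identity, was at 0.547, 1.41 and 0.975 CPM in homozygous KO, 3.71, 2.94 and 3.13 CPM in heterozygous KO and 4, 4.84, 6.31 and 2.48 CPM in wild type. The homozygous KO values lay below all others (-2.18 against wild type, edgeR adjusted p = 0.00134), and the heterozygous KO values lay within the wild-type range. Erg is also transcribed in early thymocyte progenitors. Epas1, the hypoxia-inducible factor HIF-2alpha, was higher (1.01, adjusted p = 0.00534), as was Fli1 by 0.16 (adjusted p = 0.0262, lost without homozygous KO 2 at 0.092).

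Of 13 other endothelial surface and junction genes 12 were tested, with 4 higher and 1 lower and a median of 0.72. The 3 with the largest changes were Clec14a, an endothelial lectin (3.27, edgeR adjusted p = 0.00718), Vwf, the von Willebrand factor gene of endothelium and platelets (2.35, adjusted p = 0.0203), and the water channel gene Aqp1, also of erythroid cells (1.97, adjusted p = 0.00614). Aqp1 was at 4.76, 9.88 and 2.29 CPM in homozygous KO, all above the wild-type values of 1.47, 2.14, 1.14 and 1.09 CPM. Clec14a and Aqp1 were still called without homozygous KO 2 and Vwf was not (adjusted p = 0.162). Clec14a had only 2, 4, 3 and 2 counts in the wild types and was at 0.182, 0.988 and 0.188 CPM in homozygous KO. It was not called against heterozygous KO. Of 6 tested arterial genes 0 were called by edgeR and 0 by DESeq2. The most abundant were Efnb2 at 0.13 and Dll4 at -0.51, and 1 had an unadjusted p under 0.05, Bmx at 2.49 (edgeR adjusted p = 0.0598). With a term for the animal-number set edgeR called Hey1 (-0.91) and Dll4 (-0.89) lower and Efnb2 was at -0.37, while with the replicate number as a block it called Efnb2 higher (0.62). Of 3 tested lymphatic genes 0 were called by either tool, with 0 at an unadjusted p under 0.05 (Reln at 1.11 and Flt4 at 0.28). Of 6 tested venous and portal genes 1 was higher (Vwf) and 2 lower (Ephb4, and Vcam1 at -1.36, adjusted p = 0.000739). Vcam1 had a wild-type mean of 25 CPM. Between heterozygous KO and wild type, edgeR and DESeq2 called 0 genes in each of these lists, and 1 gene, in the surface and junction list, had an unadjusted p under 0.05.

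**Figure D4:**
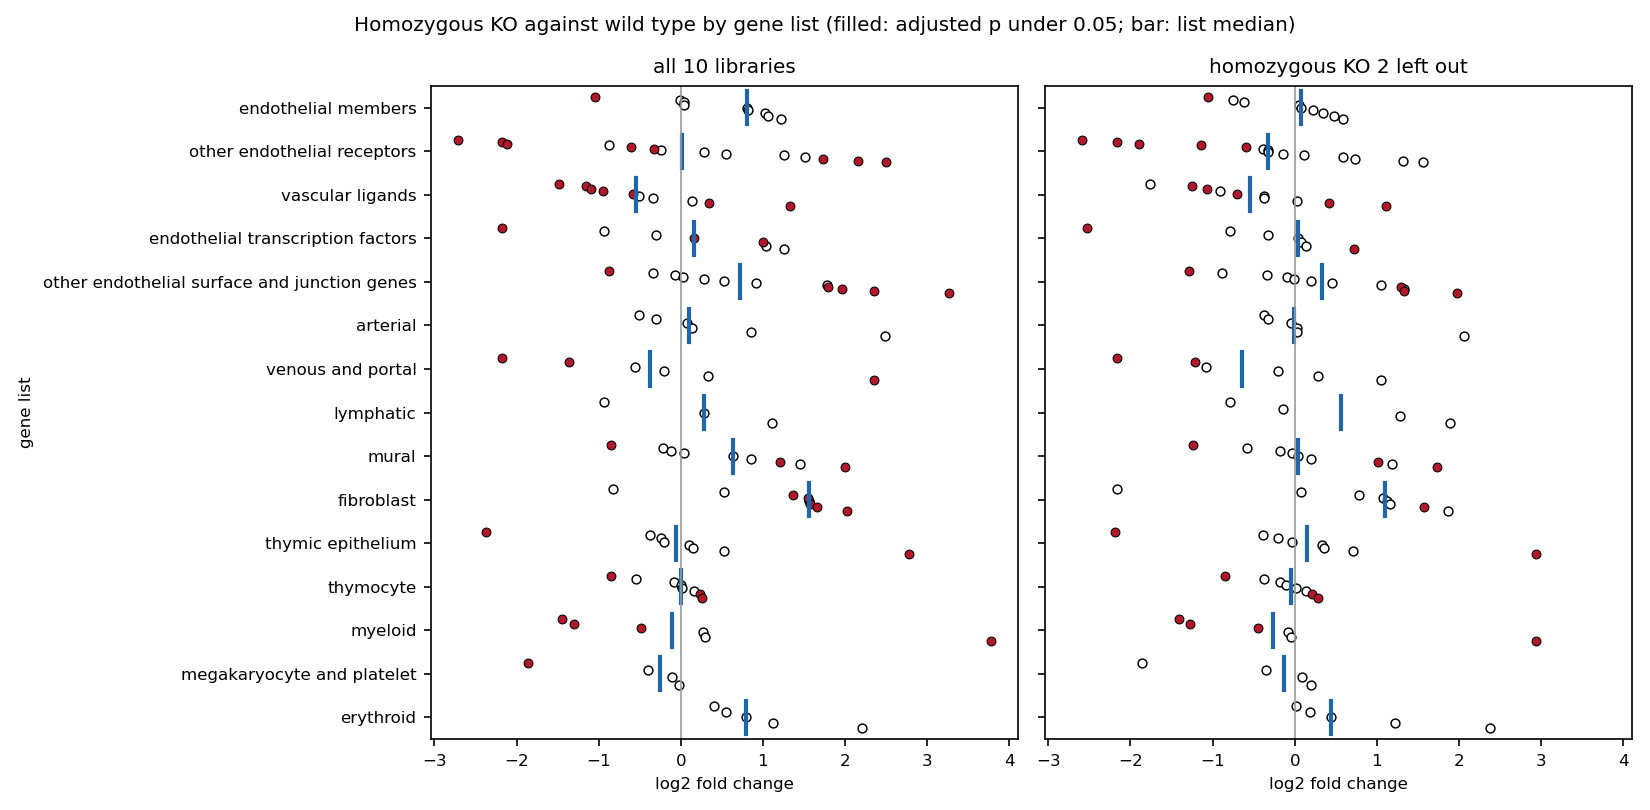
Log2 fold changes in homozygous KO against wild type (x axis) for the tested genes of each list shown (y axis), with all 10 libraries (left) and without homozygous KO 2 (right). Filled points had an edgeR adjusted p under 0.05 and the bar is the list's median. The median of the endothelial members moves from 0.80 to 0.07 between the panels, while the filled point of Eng stays near -1.

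Markers of the other cells in these libraries also differed between homozygous KO and wild type, where 12.5% of all tested genes were called higher and 13.2% lower. Of 9 mural genes 2 were higher (Kcnj8 at 2.00 and Notch3, which thymocytes also express, at 1.21) and 1 lower (Pdgfrb at -0.85). Their summed level was 403 to 751 CPM in homozygous KO against 242 to 296 CPM in wild type, most of it Notch3, and the other 8 mural genes summed to 18.1 to 35.5 CPM against 30.9 to 38.7 CPM. Of 8 fibroblast genes 5 were higher, with Lum at 2.03, Col1a2 at 1.66 and Fbln1 at 1.58, and 1 stayed called without homozygous KO 2. Their sum was 89.1 to 110 CPM against 27.7 to 38.4 CPM, and 10.5 to 32.5 CPM against 4.35 to 13.1 CPM without Fbln1. Of 8 thymic epithelial genes 1 was higher (Krt5 at 2.77) and 1 lower (Aire at -2.37), with sums of 116 to 235 CPM against 110 to 163 CPM. Of 8 thymocyte genes 2 were higher (Cd8a at 0.26, Lck at 0.23) and 1 lower (Rag1 at -0.85). Their sum was 8300 to 8480 CPM against 9800 to 11100 CPM with Rag1, and the direction turned without it, at 4820 to 4970 CPM against 4140 to 4740 CPM. The B-cell genes Ms4a1 and Pax5 were lower by edgeR, at a mean of 0.00615 against 4.47 CPM for Ms4a1 (adjusted p = 3.47e-06) and of 0.0235 against 1.26 CPM for Pax5 (adjusted p = 7.58e-05). Of 4 tested megakaryocyte and platelet genes 1 was lower (Pf4 at -1.86), with sums of 7.37 to 9.34 CPM against 8.47 to 10.8 CPM. Of 5 erythroid genes edgeR and DESeq2 called 0, with 2 at an unadjusted p under 0.05, and their sum spanned 96.3 to 890 CPM in homozygous KO and 137 to 688 CPM in wild type. No listed gene was at 0 in every library. What these cells contributed to the members' levels was not tested.

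The members' common profile was taken as the median of their log2 CPM, each centred on its own mean, in every library. It stood at 1.15 in homozygous KO 2 and between -0.39 and 0.09 in the other 9 libraries. Of 13646 other genes compared over the 10 libraries, the 5 closest to this profile by root mean square distance were Myl10 (0.17), Tmem38a (0.20), Glipr1 (0.21), Mylk (0.21) and Stk39 (0.22). Among the members themselves the distance was smallest for Flt1 (0.26) and largest for Tek (0.92) and Eng (0.74).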

How the data were processed

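The authors deposited 1 table of raw counts per gene, with no normalization, for total RNA of the thymus from 10 mice, after ribosomal depletion and stranded library preparation. The submitters' processing notes name CASAVA, STAR 2.4.1d, HTSeq 0.6.1p1 and the mouse build mm9 (NCBIM37), whereas the study's methods describe a BWA-based pipeline with a human reference. The annotation release and the strand setting of the counting are not given in the sources used here. Of 35375 features, 34467 had an Ensembl identifier, 30204 of which matched a gene symbol. The 908 others took 1.74% to 2.29% of the counts and stayed in the library totals. Exon lengths and shared exon bases came from GENCODE M21 (GRCm38), another build than that of the notes, so only RefSeq promoters carry coordinates.

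Samples were grouped by their titles. The count columns of 2 wild types also hold the word het, and these libraries stayed in the group of their titles. Counts were tested with edgeR 4.0.16 in R 4.3.3: filterByExpr (19511 genes kept), TMM scaling, 1 quasi-likelihood fit over all 10 libraries (glmQLFit, glmQLFTest) and Benjamini-Hochberg adjustment over all tested genes, with a call at an adjusted p under 0.05. The common biological coefficient of variation was 0.207. The standard error is the absolute log2 fold change divided by the square root of F. The script was tested on simulated data. Alternatives were DESeq2 1.42.0, other scalings, no filter, pairwise fits, a replicate block, a term for the animal-number set, Xist as a covariate, the wild types of each title form and leaving out each library.

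All 10 members and Usp7 were named, and from each other list the 3 called genes with the largest change, or the 2 most abundant where none was called. The result of 1 listed gene, and of the list it belongs to, is not reported here. Other called genes of the receptor list, and Bmx, Hey1, Nrp2, Itgam and Lyz2, were named after their values were seen. The members and lists were chosen with earlier results of these data known, from general knowledge. The labels name separate animals without stating litters. The p-values set each group difference against the spread between these animals as the fit estimates it, and a litter effect cannot be separated. The 12 pairs of libraries within groups differed by a chi-square per degree of freedom of 12.6 to 108, so none was a repeat of another.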

Additional observations from a re-analysis of the deposited data

How the results depend on the processing

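Eng was called in every alternative run for both comparisons of homozygous KO: its log2 fold change against wild type was -1.14 to -0.97 over 21 alternatives and against heterozygous KO -0.98 to -0.82 over 19. Of 538 other-setting values of single members, 493 kept direction and call, 11 lost the call, 13 gained one and 21 reversed. The number of members called against wild type, 1, was 2 with DESeq2 (Cdh5 added), 2 with an animal-number term and homozygous KO 2 left out (Kdr added at -0.67, an alternative chosen after seeing the data), and 1 to 4 on leaving out 1 library, with 4 (Cdh5, Flt1 and Plvap added) without homozygous KO 1 and 2 (Cdh5 added at 1.42) without homozygous KO 3. Against heterozygous KO the number, 2, was 3 with DESeq2 and 3 with the animal-number term (Tek added in both), 1 with library totals only, 1 with only the 2 groups compared, and 1 to 4 without 1 library, with 4 (Flt1 and Tek added) without homozygous KO 1. In heterozygous KO it was 0 in all 20 alternatives. Over all genes, 5030 calls against wild type became 2670 with the wild types of 1 wt word and 3945 to 5152 without 1 library. In heterozygous KO 3 became 71 with DESeq2, 5 with the replicate block and 2 to 6 without 1 library, and in homozygous KO against heterozygous KO 3342 became 2153 to 3370 without 1 library (2153 without heterozygous KO 3).

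Reversals touched members that were not called. Cdh5 in heterozygous KO was -0.23 with Xist. With the animal-number term and homozygous KO 2 left out, Cdh5 was -0.25 and Cldn5 -0.40 against heterozygous KO, and Cldn5 was -0.57 against wild type. Cldn5 against wild type was also -0.0653 with library totals, -0.36 with the replicate block, -0.42 with the wild types of 2 wt words and -0.35 with Xist. Kdr in heterozygous KO was -0.0638 with the animal-number term and -0.13 with Xist, and Pecam1 against wild type was -0.0572 with library totals, a scaling that moved the median of all genes to -0.11. Without 1 library, Cdh5 ranged from -0.23 to 1.12, Cldn5 from -0.13 to 1.05 and Kdr from -0.74 to 0.14 against heterozygous KO, and Cldn5 from -0.75 to 0.49 and Kdr from -0.62 to 0.26 against wild type. The cause was not tested.

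The shared replicate numbers did not pair the samples: the 9 same-number pairs correlated at -0.10 to 0.23, and 2 of 10 libraries matched best with their own number. Pairs of libraries from different groups correlated at -0.16 to 0.23 within an animal-number set and at -0.33 to 0.15 across the sets. Within a set only heterozygous KO 1 with wild type 3 lay below 0, and the other pairs lay at 0.02 to 0.23. Across the sets most pairs lay below 0. The earlier set held 1 homozygous KO, 1 heterozygous KO and 3 wild types, and the later set 2, 2 and 1. The main fit held no term for the set. With the replicate block the members called stayed 1 against wild type, and against heterozygous KO Plvap lost its call (adjusted p = 0.0547) and Tek gained one (adjusted p = 0.0328). Between the animal-number sets the difference from wild type was larger among the later numbers by 2.11 for Plvap (edgeR adjusted p = 0.442) and by 1.79 for Flt1 (adjusted p = 0.496), both with an unadjusted p under 0.05. Each set holds an arm of 1 library, so a missed threshold shows no equality here. The later set includes homozygous KO 2, with the highest values of both genes (3.69 CPM for Plvap and 2.3 CPM for Flt1). Its only wild type, wild type 4, had the lowest wild-type values (0.592 and 0.58 CPM). Emcn, Tek and Cldn5 had under 100 counts in each library.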
